A study of Mus musculus with 12 samples.

Results

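Mouse sperm carry a set of ADAM proteins on their surface, and 10 genes for these proteins and for the chaperones that fold them were followed in testis RNA. The genes were Adam1a, Adam2, Adam3, Adam5, Adam6b, Adam21, Adam24, Adam32, Clgn and Calr3. They were chosen by name, with earlier results of these data known. All 10 were found by symbol among the 20788 genes of the deposited table. Total RNA came from testes of F1 mice whose strain is labelled IRC mouse, and no age is given. Every group had been transfected with virus: 8276OV for overexpression of the long non-coding RNA lncRNA8276, 5NC as the control set against it here, 8276KD for its knockdown, and 3NC as the control set against the knockdown. Each group had 3 libraries, so 12 in all, and the pairing of constructs with controls follows the order in which the design text lists them. Nothing in the labels ties a library to an animal of its own, and the spread on which the p-values rest may therefore be technical.

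ADAM proteins are membrane proteins with a disintegrin and a metalloprotease-like domain. In male germ cells they are made in the endoplasmic reticulum, pair with one another and pass through quality control by chaperones that are made only or mainly in the testis, and a part of them reaches the sperm surface. Mice that lack the chaperones, or the ADAM proteins that act as partners, lose ADAM3 from mature sperm, and such sperm fail to enter the oviduct or to bind the coat of the egg.

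Libraries held 13485479 to 15771655 counts, with 5NC 2, 5NC 3 and 8276OV 2 the 3 lowest. One library, 3NC 2, differed from the rest: its correlations had a median of 0.942, where each of the 11 others reached 0.968 to 0.978. Its summed level over 8 macrophage and leukocyte markers was 365.5 CPM (counts scaled to library size), against 42.2 to 63.9 CPM elsewhere. All 10 round spermatid markers and all 10 elongating spermatid markers were detected and tested in these testis libraries. No value of lncRNA8276 itself was analysed here, which leaves the labels of the constructs without a check on their target.

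Adam21, Adam6b, Adam1a and Adam24 each had 1 coding exon in the GENCODE M21 annotation of GRCm38, while the other 6 members had 9 to 22. Adam21 lies at chr12:81558584-81568474 on the minus strand, Adam6b at chr12:113489511-113492057 on the plus strand, Adam1a at chr5:121518576-121545482 on the minus strand, and Adam24 at chr8:40675077-40682199 on the plus strand. Adam3, Adam5 and Adam32 are neighbours on the minus strand of chromosome 8, between 24677225 and 24948804, and with Clgn, Calr3 and Adam24 they make 6 members on that chromosome. Adam21, the only member called in 8276OV against 5NC, and Adam6b, whose log2 fold change there was of the same size, are 2 of those with 1 coding exon, and the sequence before their starts is shown from RefSeq (GRCm38.p6): 250 bases of Adam21, chr12:81568475-81568724 on the minus strand, and 196 bases of Adam6b, chr12:113489315-113489510 on the plus strand. The Adam6b stretch stops at -55 from the RefSeq start, where the GENCODE transcript begins. Capitals mark matches to the motifs named after the sequences.
Adam21: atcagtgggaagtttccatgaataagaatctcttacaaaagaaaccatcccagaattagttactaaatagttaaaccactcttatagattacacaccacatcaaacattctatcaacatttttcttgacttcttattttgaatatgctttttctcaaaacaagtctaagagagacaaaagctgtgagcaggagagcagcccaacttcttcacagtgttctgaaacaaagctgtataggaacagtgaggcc
Adam6b: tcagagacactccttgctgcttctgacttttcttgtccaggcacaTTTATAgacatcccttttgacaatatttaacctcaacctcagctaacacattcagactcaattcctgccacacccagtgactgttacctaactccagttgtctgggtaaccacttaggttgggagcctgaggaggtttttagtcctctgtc
The 250 bases before the start were searched on both strands for TGACGTCA (the cAMP response element, which many testis genes use), its shorter form TGACGT (part of every TGACGTCA), the CCAAT box, the TATA box form TATAAA, and GGGCGG, the core of the GC box. Over 32851 RefSeq windows of the same length these occurred in 1.55%, 6.47%, 33.8%, 12.4% and 32.7%. Adam21 held none of them in this window, and Adam6b held TTTATA, the reverse complement of TATAAA, at -205 to -200. Neither window held the cAMP response element in either form.

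Reads of 2 members can be confused with those of a near copy. Adam6b and its neighbour Adam6a, which lie inside the immunoglobulin heavy chain locus, had 94.8% identical bases over 2511 aligned bases of their transcripts, and 29.6% of the 50-base windows of Adam6b were found in Adam6a. Adam1a and Adam1b had 77.0% identity and shared 30.9% of the windows of Adam1a. The deposited counts carried fractions for Adam6b in 12 of 12 libraries and for Adam1a in 11 of 12, and for no other member in any library, so values of these 2 genes are uncertain. The coding stretch in which Adam6b and Adam6a differ most is shown, from the GENCODE transcripts. Reads of the 2 genes can be told apart where their bases differ, here and elsewhere. It lies at chr12:113490450-113490509 for Adam6b and chr12:113544894-113544953 for Adam6a, both on the plus strand, and capitals mark the 19 of 60 bases that differ.
Adam6b: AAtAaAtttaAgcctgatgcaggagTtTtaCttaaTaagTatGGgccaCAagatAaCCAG
Adam6a: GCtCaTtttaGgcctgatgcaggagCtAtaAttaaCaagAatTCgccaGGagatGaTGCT

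The members spanned a wide range of levels per length. Over the 12 libraries Adam5, a testis ADAM gene, averaged 580.2 ± 52.2 FPKM (fragments scaled to transcript length and library size, SD, n = 12), and Adam3, which encodes the ADAM protein needed for passage into the oviduct, averaged 519 ± 31.7 FPKM. Adam32 followed with 377 ± 36.6 FPKM, the chaperone gene Clgn (calmegin) with 224 ± 18.6 FPKM, and Adam2 (fertilin beta) with 182 ± 17.6 FPKM. Below these stood Adam1a (an isoform of fertilin alpha) with 94.4 ± 7.98 FPKM, the chaperone gene Calr3 (calsperin) with 88.3 ± 8.65 FPKM, and Adam24 (testase 1, a protease of mature sperm) with 53.1 ± 7.93 FPKM. Adam6b and Adam21 were the lowest, with 37.1 ± 4.88 and 18.7 ± 2.56 FPKM. This order held in 12 of 12 libraries for each pair of neighbours other than Adam1a and Calr3, which kept it in 11 of 12. The ranges over libraries overlapped for Adam5 and Adam3, for Clgn and Adam2, for Adam1a and Calr3 and for Adam24 and Adam6b, and the other neighbours in the order were apart. The 5 most abundant members ranked between 102 and 588 among all genes of the table, and Adam21 ranked 4706.

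**Figure D1:**
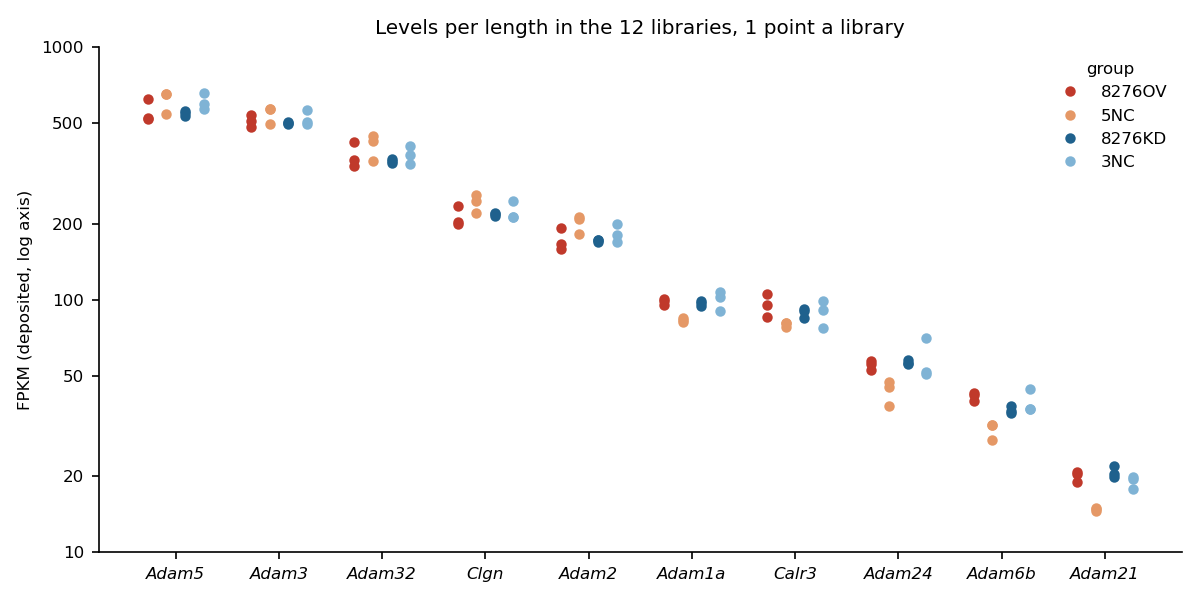
Deposited FPKM of the 10 genes on a log axis, 1 point a library, coloured by group and ordered by mean. Adam5 and Adam3 lie between 484 and 657 FPKM and Adam21 between 14.5 and 22.0 FPKM. The 5NC points are the lowest for Adam6b, Adam21, Adam24 and Adam1a.

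The comparison of 8276OV with 5NC asks which genes differ when lncRNA8276 is raised. Adam21 was the only member to pass, 1.40-fold higher in 8276OV, and Adam6b, Adam24, Calr3 and Adam1a were 1.22 to 1.41-fold higher without passing. Adam2, Adam3, Adam5, Adam32 and Clgn differed by 0.18 or less on the log2 scale, with all 5 estimates below 0. In all, 1 of 10 members was called higher and 0 lower by edgeR's quasi-likelihood test with Benjamini-Hochberg adjustment over 16395 genes, where 0.256% of all genes were called higher and 0.476% in either direction. At an unadjusted p below 0.05 the members were 5 of 10, all higher, and 8.9% of all genes were higher. The median log2 fold change was 0.12 over the members, against -0.012 over all genes. Since the members were chosen with earlier results of these data known, their shares beside those of all genes are a description, here and below.

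Adam21, a single-coding-exon ADAM gene of the testis, stood at 54.3, 56.2 and 60.1 CPM in 8276OV, against 40.2, 40.2 and 41.1 CPM in 5NC. Every 8276OV library was above every 5NC library, and the 5NC values lay within 1 CPM of each other. The means were 56.8 ± 2.96 CPM in 8276OV and 40.5 ± 0.503 CPM in 5NC (SD, n = 3 each), a log2 fold change of 0.49 ± 0.09 (SE, adjusted p = 0.0449, edgeR). This call was near the threshold: it was made under 9 of 21 alternatives, with adjusted p from 0.000212 to 0.222. It was not made with limma-voom, without the filter on low counts, with a term for the 3 libraries of lowest total, or after leaving out any 1 library other than 3NC 2, 3NC 3 or 8276OV 2. The estimate moved little when a library was left out, between 0.45 and 0.52.

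Adam6b encodes an ADAM protein that, with its copy, is required for fertility of male mice. Its levels were 87.2, 90.3 and 92.9 CPM in 8276OV, against 58.9, 66.2 and 67.0 CPM in 5NC, with no overlap. The log2 fold change was 0.49 ± 0.10 (adjusted p = 0.0685, edgeR), the same size as for Adam21. It was called under 6 of 21 alternatives, with adjusted p from 0.00136 to 0.295. DESeq2 called it, among 742 genes in all. So did edgeR with library totals, with the 2 groups alone, under a replicate block, and without 3NC 2 or 3NC 3. Adam6b was not called with limma-voom, without the filter on low counts, or after leaving out any other library. Summed with Adam6a, whose own log2 fold change was 0.37 ± 0.11 (adjusted p = 0.138), the pair differed by 0.41 ± 0.10 (adjusted p = 0.0936, edgeR).

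Adam24 stood at 147, 155 and 157 CPM in 8276OV and at 103, 126 and 121 CPM in 5NC, and Adam1a at 304, 279.8 and 302 CPM in 8276OV and at 249, 235 and 242 CPM in 5NC. Neither gene's groups overlapped. The log2 fold changes were 0.39 ± 0.13 (adjusted p = 0.185) and 0.29 ± 0.09 (adjusted p = 0.164, edgeR for both), and each was called in 1 alternative, Adam24 without 3NC 3 (adjusted p = 0.0428) and Adam1a without 3NC 2 (adjusted p = 0.042). Adam1b, whose protein is the fertilin alpha of the sperm surface while that of Adam1a stays in the endoplasmic reticulum, went the other way, with -0.28 ± 0.09 (adjusted p = 0.18). The sum of Adam1a and Adam1b therefore differed by 0.06 ± 0.09 (adjusted p = 0.808, edgeR), and Adam1a took 63.2% to 66.7% of the sum in 8276OV, against 55.0% to 56.8% in 5NC, 62.2% to 66.6% in 8276KD and 61.5% to 63.3% in 3NC. How the authors' counting divided reads between these copies is not given in the sources used here.

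Of the chaperone genes, neither passed, and the difference between their fold changes was not tested. Calr3, which encodes a testis form of calreticulin needed for ADAM3 to mature, was at 149.7, 129.7 and 167 CPM in 8276OV and at 123, 117 and 122 CPM in 5NC. The groups did not overlap, and the log2 fold change was 0.30 ± 0.12 (adjusted p = 0.239, edgeR). Clgn, a testis form of calnexin that assists the pairing of fertilin subunits, was at 716, 813 and 733 CPM in 8276OV and at 763, 884 and 841 CPM in 5NC, with overlap and a log2 fold change of -0.14 ± 0.10 (adjusted p = 0.581).

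The abundant ADAM genes with many exons overlapped between 8276OV and 5NC. Adam2 was at 419, 468 and 403 CPM in 8276OV and at 443, 510.4 and 506 CPM in 5NC, a log2 fold change of -0.18 ± 0.10 (adjusted p = 0.427). Adam3 averaged 1338 ± 50.9 CPM in 8276OV and 1383 ± 101.5 CPM in 5NC (SD, n = 3 each), Adam5 1517 ± 123 and 1626 ± 153 CPM, and Adam32 869 ± 82.3 and 921 ± 99.9 CPM, in the same order of groups. Their log2 fold changes lay between -0.10 and -0.048, with adjusted p from 0.719 to 0.865 (edgeR). In both groups library 1 was the lowest for Adam3, Adam5 and Adam32. Taken by ranges, 5 of 10 members (Adam1a, Adam6b, Adam21, Adam24 and Calr3) had all 3 8276OV libraries above all 3 5NC libraries, which held for 11.7% of all tested genes, and 0 had all 3 below, which held for 10.3%.

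**Figure D2:**
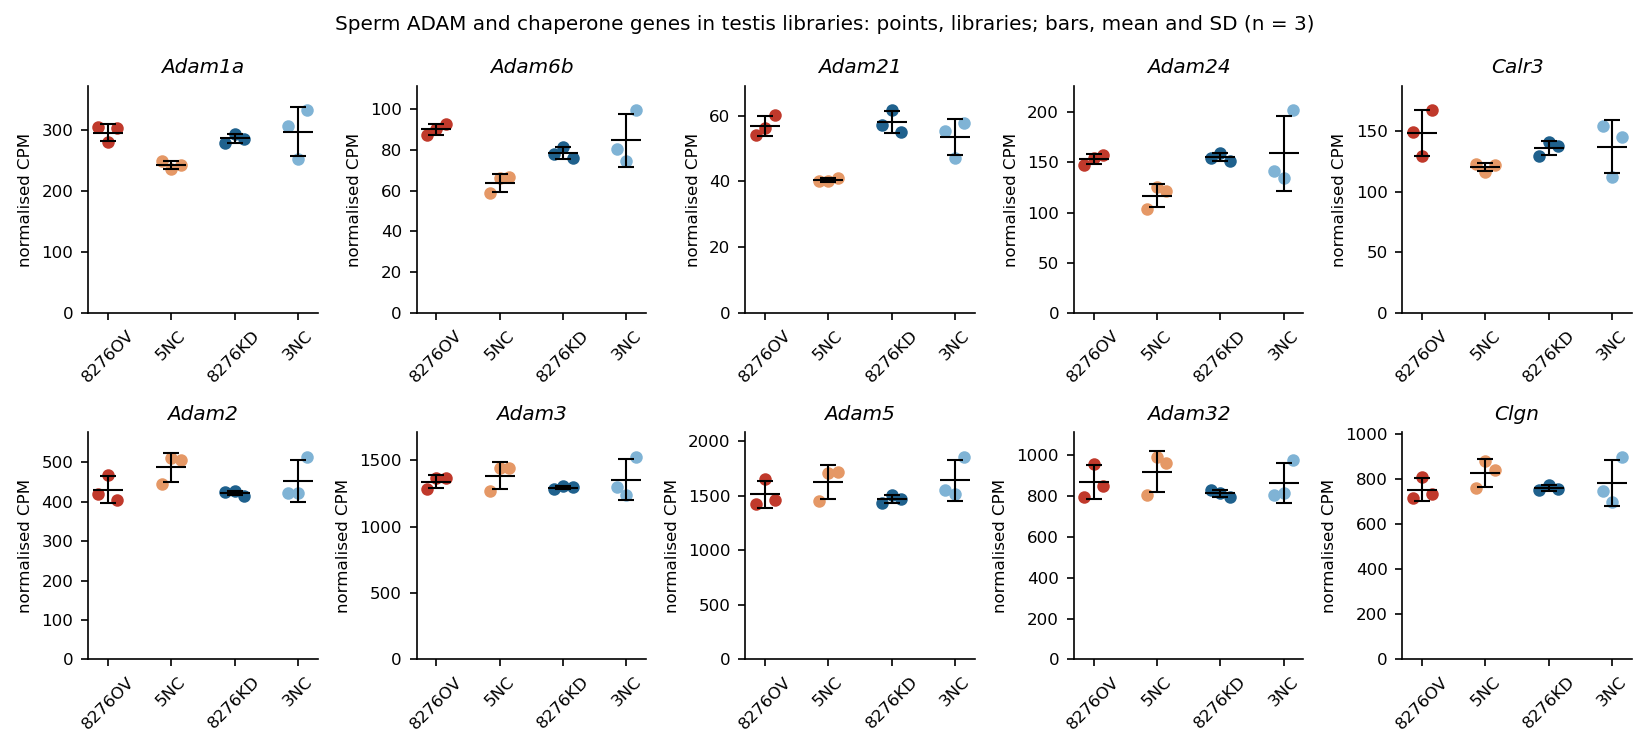
Normalised CPM of each gene by group, with 1 point a library and bars for the mean and SD (n = 3), on axes from 0. In the upper row the 5NC points lie below all 9 other libraries for Adam1a, Adam6b, Adam21 and Adam24. In the lower row 8276OV and 5NC overlap for all 5 genes.

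The 2 control groups were then compared, since each construct was set against another control. Adam1a, Adam6b, Adam21 and Adam24 were lower in 5NC than in 3NC, by 0.29 to 0.45 on the log2 scale, but none passed. By edgeR's quasi-likelihood test 0 of 10 members were called, against 0.244% of all genes, with 4 at an unadjusted p below 0.05, all lower in 5NC, a share that was 7.87% over all genes. DESeq2 called 2, Adam21 (adjusted p = 0.00678) and Adam6b (adjusted p = 0.0222), among 305 genes in all. With limma-voom 0 members were called, among 13 genes in all. For Adam21 the values were 40.2, 40.2 and 41.1 CPM in 5NC and 55.3, 47.3 and 57.9 CPM in 3NC, with a log2 fold change of -0.40 ± 0.09 (adjusted p = 0.118, edgeR). Adam6b differed by -0.41 ± 0.10 (adjusted p = 0.165), Adam24 by -0.45 ± 0.13 (adjusted p = 0.227) and Adam1a by -0.29 ± 0.09 (adjusted p = 0.251). All 4 had every 5NC library below every 3NC library, which held for 6.17% of all genes. They also lay below all 9 libraries of the other 3 groups, which held for 3.0% of all genes. Without 3NC 2, the library with high leukocyte markers, 126 genes in all were called by edgeR. Among them were 2 members, Adam1a (adjusted p = 0.0416) and Adam21 (adjusted p = 0.0411). Over all 12 libraries, the sum of Adam1a and Adam1b differed by -0.136 ± 0.088 (adjusted p = 0.547, edgeR). The sum of Adam6b and Adam6a differed by -0.325 ± 0.103 (adjusted p = 0.251, edgeR).

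Because 8276OV against 5NC and 5NC against 3NC share the 5NC libraries, the constructs were also set against the control that was not their own. Against 3NC, 8276OV differed by 0.09 ± 0.09 for Adam21 (adjusted p = 0.798), by 0.09 ± 0.10 for Adam6b, by -0.055 ± 0.13 for Adam24 and by -0.007 ± 0.09 for Adam1a (edgeR). No member was called there, against 0.0061% of all genes, and 0 had an unadjusted p below 0.05, against 6.69% of all genes. Against 5NC, 8276KD differed by 0.52 ± 0.09 for Adam21 (adjusted p = 0.0287, edgeR), by 0.41 ± 0.13 for Adam24, by 0.29 ± 0.10 for Adam6b and by 0.24 ± 0.09 for Adam1a. Adam21 was the 1 member called, against 1.23% of all genes. So Adam21 passed in either construct group when set against 5NC, and in neither when set against 3NC.

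In 8276KD against 3NC the comparison asks which genes differ when lncRNA8276 is lowered. No member passed, and the log2 fold changes ran from -0.16 for Adam5 to 0.12 for Adam21. By edgeR's test 0 of 10 members were called, against 0.0183% of all genes, with 0 at an unadjusted p below 0.05 (8.69% of all genes) and 0 by DESeq2 and by limma-voom. Adam5 averaged 1473 ± 35.2 CPM in 8276KD and 1642 ± 188 CPM in 3NC (SD, n = 3 each), with all 3 8276KD libraries below the lowest 3NC library (adjusted p = 0.598). It was the only member whose groups did not overlap, which held in that direction for 6.57% of all genes. Adam21 was at 57.3, 61.6 and 55.1 CPM in 8276KD, against 55.3, 47.3 and 57.9 CPM in 3NC. The 3NC values were wide: 3NC 3 was the highest of the 12 libraries for 7 members, and 3NC 2 was the lowest of its group for 8.

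Set directly against each other, 8276OV and 8276KD shared no control. By edgeR's test 0 of 10 members were called, as were 0.0% of all genes, with 0 members at an unadjusted p below 0.05 (2.09% of all genes) and 0 by DESeq2 and limma-voom. Log2 fold changes ran from -0.029 for Adam21 to 0.20 ± 0.10 for Adam6b, which was the only member with all 8276OV libraries (87.2, 90.3 and 92.9 CPM) above all 8276KD libraries (78.1, 81.6 and 76.0 CPM). That held for 5.56% of all genes. The difference between the effect of 8276OV over 5NC and that of 8276KD over 3NC was largest for Adam6b, 0.60 ± 0.15 (adjusted p = 0.384, edgeR), followed by Adam24 with 0.43 ± 0.19, Adam21 with 0.37 ± 0.13 and Adam1a with 0.34 ± 0.13. For this difference 0 members were called, against 0.0183% of all genes, with 4 higher at an unadjusted p below 0.05, against 3.93% of all genes. DESeq2 called Adam6b (adjusted p = 0.04), among 53 genes in all, and limma-voom called 0 members.

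**Figure D3:**
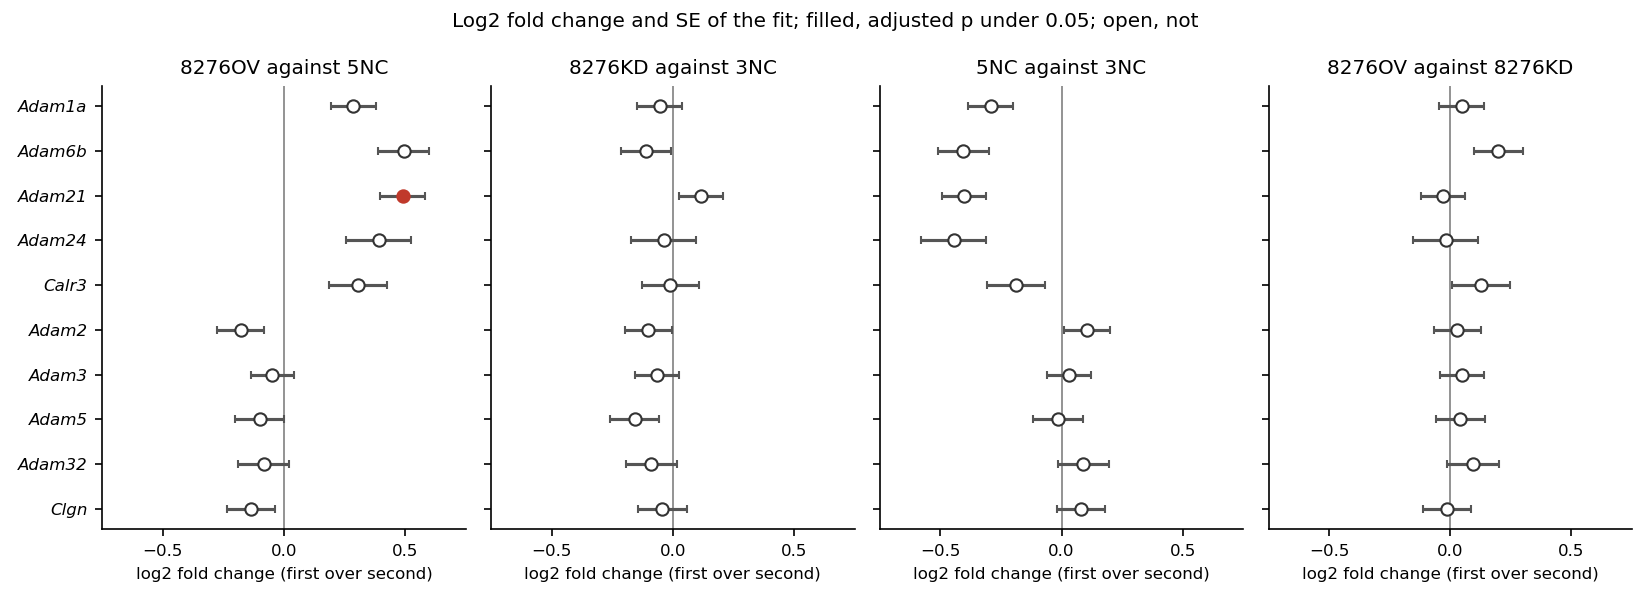
Log2 fold change of each gene, first group over second, with its SE, in 4 comparisons; a filled point has an adjusted p under 0.05. Adam21 in 8276OV against 5NC is the only filled point, and Adam1a, Adam6b, Adam21 and Adam24 lie to the right of 0 in that panel and to the left in 5NC against 3NC.

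Over the 12 libraries the members fell into 2 sets that varied together. Pearson correlations of log2 CPM were 0.83 to 0.92 among Adam1a, Adam6b, Adam21 and Adam24, and 0.83 to 0.93 among Adam2, Adam3, Adam5, Adam32 and Clgn. Between the sets they ran from -0.49 to 0.35. Calr3 went with the first set, at 0.57 to 0.86, and not with the other chaperone gene. The 12 libraries share their group structure, depth and cell make-up, so these values are a description. The ranges were alike without 3NC 2, and without 3NC 3 those between the sets were -0.76 to -0.078. The genes whose pattern was most like the mean of the 10 members over the 12 libraries were Ccdc70 (r = 0.978), Fam3b (r = 0.973), Sord (r = 0.969), Spata7 (r = 0.964) and Spata48 (r = 0.962). Without 3NC 2, Ccdc70 and Spata7 stayed among the first 5. That mean mixes the 2 sets, and it was highest in 3NC 3 (0.238) and lowest in 5NC 1 (-0.187). The ranking was not repeated without these 2 libraries. None of the 5 genes was the one most correlated with any single member.

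**Figure D4:**
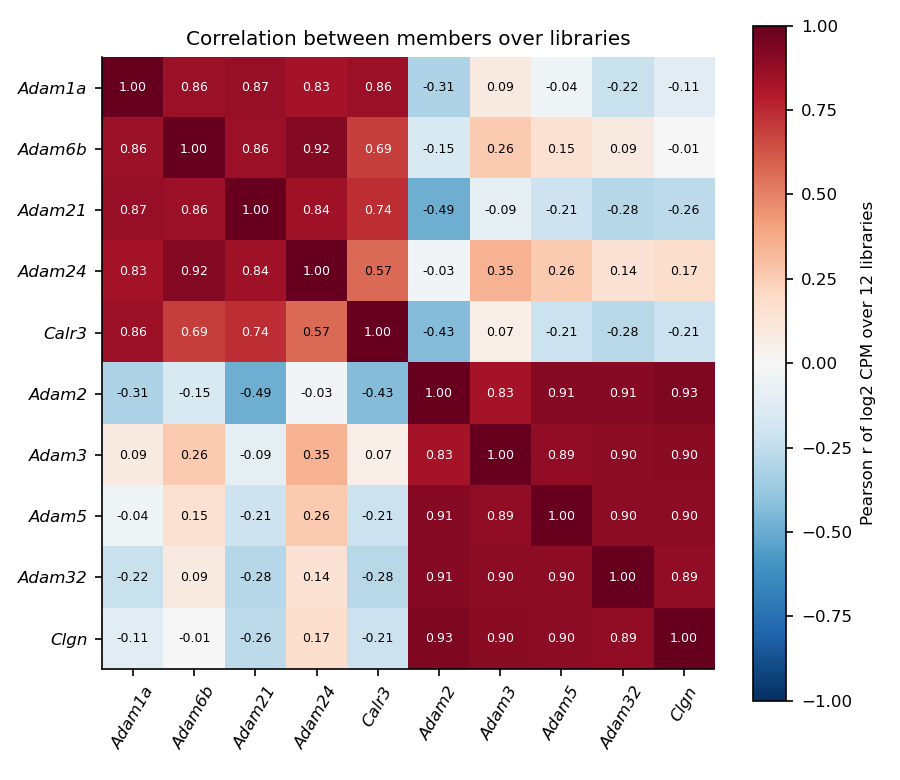
Pearson correlation between members of log2 CPM over 12 libraries. The upper left block holds Adam1a, Adam6b, Adam21, Adam24 and Calr3, the lower right block Adam2, Adam3, Adam5, Adam32 and Clgn, at 0.83 or more, and values between the blocks are -0.49 to 0.35.

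Among the 8 ADAM members, the set with Adam1a had 1 coding exon and the set with Adam2 had several, a feature noticed after the values were seen. Calr3 did not follow it, with 9 coding exons and the pattern of the first set. Germ cell ADAM genes outside the members were therefore looked at. Of 16 such genes listed, 14 were in the table and 13 were tested. None passed in 8276OV against 5NC by edgeR's test, with 3 higher and 2 lower at an unadjusted p below 0.05. Over all genes 8.9% were higher and 6.39% lower at that p. DESeq2 called 2 of the 13, among 742 genes in all, and limma-voom 0. The 2 with the smallest p were Adam18, a testis ADAM gene with several coding exons, at -0.27 ± 0.08 (adjusted p = 0.134), and Adam6a. Of the 11 with 1 coding exon, 9 were above 0 in 8276OV against 5NC (median log2 fold change 0.28) and 9 were below 0 in 5NC against 3NC (median -0.28). Adam1b and Adam30 were the exceptions in both. Both comparisons use the same 5NC libraries, so the signs in one are tied to those in the other. Adam6a and Adam1b share sequence with members. Counts of Adam4, Adam20, Adam25, Adam26a, Adam26b, Adam34 and Adam39 carried fractions too. These genes are therefore not an independent check on the members. In 5NC against 3NC the smallest p belonged to Adam25, at -0.43 ± 0.14 (adjusted p = 0.251), and Adam6a, at -0.28 ± 0.11 (adjusted p = 0.328). Over all genes tested, 54.3% of 1132 genes with 1 coding exon were above 0 in 8276OV against 5NC, against 47.2% of 14665 genes with several. In 5NC against 3NC, 646 of the 1132 were below 0, and 7774 of the 14665.

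**Figure D5:**
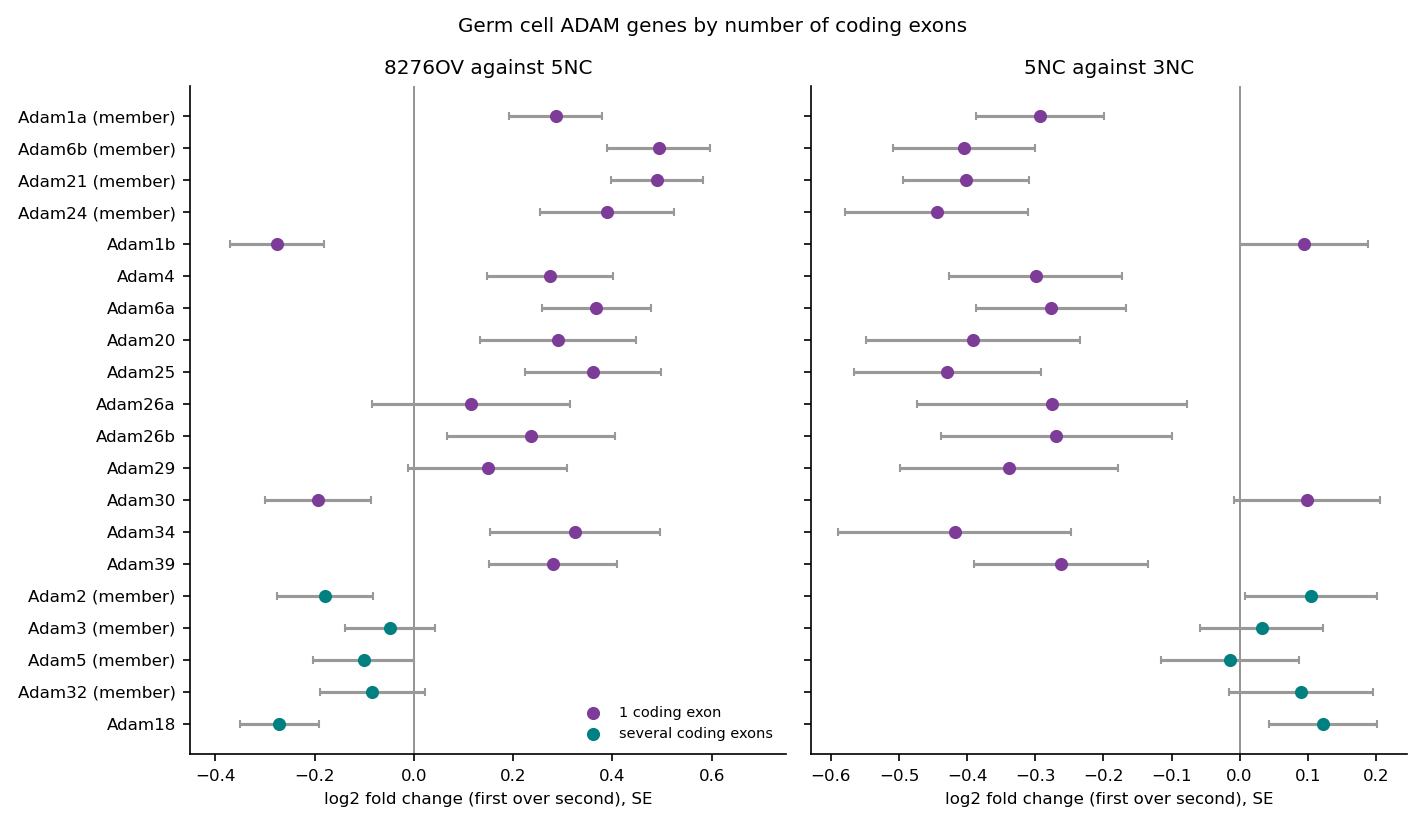
Log2 fold change with SE of germ cell ADAM genes, first group over second, coloured by the number of coding exons. Genes marked as members are those in which the exon numbers were noticed. Among the others, 9 of the 11 with 1 coding exon lie above 0 in the left panel and below 0 in the right, and Adam18 is the only one with several. Adam7, an epididymal gene, and the chaperone genes Clgn and Calr3 are left out.

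No spermatid marker was called in 8276OV against 5NC or in 5NC against 3NC by edgeR's test. Fold changes of the round spermatid list had the signs of the members with 1 coding exon, and of Calr3, in both. The same 5NC libraries enter both comparisons, so these signs are tied. Adam2, Adam3, Adam5, Adam32 and Clgn were below 0 in 8276OV against 5NC. All 10 round spermatid markers were above 0 in 8276OV against 5NC, with a median log2 fold change of 0.40, and 7 of 10 had an unadjusted p below 0.05. Over all genes the median there was -0.012, 52.0% were below 0, and 8.9% were higher at an unadjusted p below 0.05. In 8276OV against 5NC, DESeq2 called 5 round and 3 elongating spermatid markers, among 742 genes in all, and limma-voom called 0 of the markers. The round spermatid markers summed to 1480 to 1820 CPM in 8276OV, 1274 to 1359 CPM in 5NC, 1640 to 1688 CPM in 8276KD and 1294 to 1866 CPM in 3NC, so the 5NC range lay below those of 8276OV and 8276KD. In 5NC against 3NC all 10 were below 0 (median -0.36, against -0.018 over all genes). Of all tested genes with 1 coding exon 42.9% were above 0 in that comparison, and of those with several 47.0%. Elongating spermatid markers summed to 19020 to 25170 CPM in 8276OV and 17920 to 21720 CPM in 5NC, with 8 of 10 above 0 in 8276OV against 5NC and 7 of 10 below 0 in 5NC against 3NC. Pachytene spermatocyte markers summed to 5533 to 5569 CPM in 8276OV and 5270 to 5510 CPM in 5NC, but 4 of 8 were above 0 and 4 below, with a median log2 fold change of -0.067. The smallest p of that list was that of Ccna1, a cyclin of male meiosis, at -0.37 ± 0.08 (adjusted p = 0.0671, edgeR), which DESeq2 called. The part of these markers in the members' differences was not tested, and in RNA of whole testis fewer cells of a type and less RNA per cell cannot be told apart.

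Other genes that ADAM3 depends on were listed for the same pathway: 11 of 12 were in the table and tested, and 0 were called in 8276OV against 5NC by edgeR's test, with 2 higher and 1 lower at an unadjusted p below 0.05. Over all genes 8.9% were higher and 6.39% lower at that p. Of the 11 listed genes DESeq2 called 1, among 742 genes in all, and limma-voom 0. Prss37, a protease-like protein of the testis, had a log2 fold change of 0.38 ± 0.12 (adjusted p = 0.147), and Pdilt, a protein disulfide isomerase-like chaperone that acts with Clgn, 0.35 ± 0.13 (adjusted p = 0.223). Pdilt stood at 204, 182 and 204 CPM in 8276OV and at 135, 163 and 164 CPM in 5NC, without overlap, and at 194, 209 and 196 CPM in 8276KD and 182, 174 and 255 CPM in 3NC. The median of this list was 0.22, against -0.012 over all genes. In 5NC against 3NC the genes with the smallest p were Pdilt, at -0.41 ± 0.13 (adjusted p = 0.266), and Cmtm2b, a membrane protein needed for ADAM3 on sperm, at 0.20 ± 0.09 (adjusted p = 0.37). In 8276KD against 3NC they were Ly6k, a surface protein of germ cells, at 0.38 ± 0.13 (adjusted p = 0.559), and Rnase10 at 1.29 ± 0.91 (adjusted p = 0.623). Rnase10 stood at 14.4, 7.26 and 2.07 CPM in 8276KD and at 2.99, 2.63 and 4.06 CPM in 3NC. Its highest value was that of 8276KD 1, the library with the highest sum of epididymis markers (519.6 CPM).

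The general folding machinery of the endoplasmic reticulum, which all cells use, was listed as well. All 10 listed genes were tested and all 10 were below 0 in 8276OV against 5NC, as were 52.0% of all genes, with a median of -0.17. By edgeR's test 0 were called, with 4 lower at an unadjusted p below 0.05, against 6.39% of all genes. DESeq2 called 2 of the 10, among 742 genes in all, and limma-voom 0. Hspa5, which encodes the chaperone BiP, was at 534, 645 and 564 CPM in 8276OV and at 668, 796 and 755 CPM in 5NC, a log2 fold change of -0.35 ± 0.09 (adjusted p = 0.103). Hsp90b1, which encodes GRP94, was at 697, 864 and 689.96 CPM in 8276OV and at 833, 1069 and 997 CPM in 5NC, a log2 fold change of -0.36 ± 0.12 (adjusted p = 0.158, edgeR). Hspa5 groups did not overlap, while those of Hsp90b1 did through 8276OV 2. In 5NC against 3NC these genes had the smallest p of the list as well, at 0.25 ± 0.09 for Hspa5 (adjusted p = 0.311) and 0.23 ± 0.12 for Hsp90b1 (adjusted p = 0.445).

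ADAM genes listed as expressed outside the germ line gave no call. All 11 listed were tested, and in 8276OV against 5NC 0 were called by edgeR, 0 had an unadjusted p below 0.05, and DESeq2 and limma-voom called 0. Over all genes 0.476% were called by edgeR, 8.9% were higher and 6.39% lower at that unadjusted p, and DESeq2 called 742. Adam22 and Adam8 had the smallest p, with log2 fold changes of -0.37 ± 0.20 (adjusted p = 0.413) and 0.75 ± 0.61 (adjusted p = 0.642). Their summed level was 149 to 158 CPM in 8276OV, 159.8 to 162 CPM in 5NC, 142 to 148 CPM in 8276KD and 145.5 to 245 CPM in 3NC, where the highest value was that of 3NC 2. The 10 members summed to 5382 to 5976 CPM in 8276OV, 5304 to 6125 CPM in 5NC, 5424 to 5566 CPM in 8276KD and 5313 to 6612 CPM in 3NC, so the groups overlapped in the total.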

How the data were processed

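RNA-seq of 12 mouse testis libraries was analysed from 1 gene table. The authors deposited estimated counts per gene, 88.2% of them whole and the rest with fractions, per the file headers and values. A second set of deposited columns has a header that gives no unit; it was read as FPKM made by the authors, since counts divided by these values and by the library totals give 1 constant length per gene, and it was used for levels only. The genome build is mm10, per the submitters' processing notes. For the aligner, the counting program, the annotation and the strand setting: not given in the sources used here. The table's 18 per-sample columns of other samples were not used.

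The estimated counts, rounded, went into edgeR 4.0.16 (R 4.3.3): filterByExpr by group (minimum count 10; 16395 of 20788 genes kept, and those left out hold 0.0707% of counts), TMM, 1 robust quasi-likelihood fit of 4 group means over 12 libraries, and Benjamini-Hochberg adjustment over all tested genes at 0.05. The biological coefficient of variation was 19.7%, a common value over all tested genes and not that of the members. Levels are normalised CPM. Alternatives were RLE factors, library totals, no filter, DESeq2 1.42.0, limma-voom (limma 3.58.1), only the groups compared, a replicate block and leaving out each library. Added after seeing the data were a term for the 3 libraries of lowest total, summed near-identical pairs, and the other control. The fit was tested on simulated data. No 2 libraries of the same group agreed within counting noise, and pairs from different groups were not checked. Gene structure and positions come from GENCODE M21 on GRCm38, the assembly behind mm10, and promoters from RefSeq GRCm38.p6. The members and lists were chosen with earlier results of these data known. All members were named in each comparison, and from each list the genes that passed or the 2 with the smallest p. The 5 genes most like the members' mean pattern were named as well. The rest of each list is given as counts.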

Additional observations from a re-analysis of the deposited data

How the results depend on the processing

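Of 1040 member log2 fold changes computed under alternatives, 41 changed sign, in 21 of 50 results, and the largest main size among these was 0.111. The cause of the changes described here was not tested. In 8276OV against 5NC, where 1 member and 78 genes in all were called, 2 members were called with library totals (163 genes in all), DESeq2 (742), the 2 groups alone and the replicate block (269). The count was 0 members without the filter, with limma-voom, with a term for the 3 lowest totals, and against 3NC (1 gene in all). DESeq2 called 2 germ cell ADAM genes, 1 ADAM3 partner and 2 folding genes there, and the replicate block called 1 folding gene. In 8276KD against 3NC (3 genes in all) the count was 23 by DESeq2, 0 with the 2 groups alone, and 202 with 1 member against 5NC. In 5NC against 3NC (40 genes) DESeq2 called 2 members and 305 genes, and the counts were 68 with library totals, 13 with limma-voom, 9 with the 2 groups alone and 6 with the term for low totals. In 8276OV against 8276KD (0 genes) DESeq2 called 12. For the difference of both effects (3 genes) DESeq2 called 1 member and 53 genes and the replicate block 6 genes.

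Same-numbered libraries correlated at -0.11 to 0.27 in their deviations from group means, and 2 of 12 libraries correlated best with their own number in every other group, so the numbers were not taken as pairs and the replicate block values above are given for completeness.

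Values near 0 changed sign as follows. With the term for low totals, Adam32 was 0.000878 in 8276OV against 5NC. In 5NC against 3NC Adam2 was then -0.026, Adam3 -0.049, Adam32 -0.081 and Clgn -0.036, and in 8276OV against 8276KD Adam2 was -0.039 and Adam5 -0.034. With library totals, Adam5 was 0.019 in 5NC against 3NC, and the difference of both effects was -0.033 for Adam3 and -0.045 for Adam32. Calr3 in 8276KD against 3NC was 0.0023 with library totals, 0.0029 with limma-voom and 0.0014 with the replicate block.

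Leaving out 1 library gave 0 to 3 members in 8276OV against 5NC (5 to 521 genes in all) and 0 to 2 members in 5NC against 3NC (7 to 126 genes). Genes in all were 1 to 9 in 8276KD against 3NC, 0 to 2 in 8276OV against 8276KD, and 3 to 12 for the difference of both effects. Germ cell ADAM genes called were 0 to 1 in 8276OV against 5NC and in 5NC against 3NC, and ADAM3 partners and folding genes 0 to 1 each in 8276OV against 5NC. Signs changed in 8276KD against 3NC for Adam1a (-0.16 to 0.034), Adam3 (-0.13 to 0.031), Adam6b (-0.20 to 0.021), Adam24 (-0.15 to 0.17), Adam32 (-0.14 to 0.0095), Clgn (-0.12 to 0.070) and Calr3 (-0.14 to 0.082). They changed in 5NC against 3NC for Adam3 (-0.029 to 0.13) and Adam5 (-0.068 to 0.085). In 8276OV against 8276KD they changed for Adam2 (-0.038 to 0.069), Adam5 (-0.027 to 0.080), Adam21 (-0.075 to 0.015), Adam24 (-0.042 to 0.0046) and Clgn (-0.072 to 0.019), and for the difference of both effects in Adam3 (-0.081 to 0.079), Adam5 (-0.046 to 0.11) and Adam32 (-0.096 to 0.058).

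Levels as CPM per kilobase of the longest reference transcript differed from FPKM by more than the SD for Adam1a (58.5), Adam6b (31.2), Clgn (200.5) and Calr3 (76.8), and placed Calr3 above Adam1a. Of the 5 genes most like the members, 2 remained without 3NC 2. With all libraries, 3 a group, no member other than Adam21 reached an adjusted p below 0.05 in 8276OV against 5NC by edgeR.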

Other observations

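Adam7 and Adam28 were on the list of germ cell ADAM genes, but Adam7 is known as a gene of the epididymis, the duct that joins the testis. Adam7 reached 83.9 CPM in 8276KD 1, 26.2 CPM in 5NC 2 and 10.3 CPM in 5NC 3, and 7.08 CPM or less in the other libraries. Adam28 had 157 counts in 8276KD 1 and 4 or fewer in each other library, and it did not pass the filter on low counts. The summed level of 8 epididymis markers, Adam7 among them, was highest in the same kind of libraries, up to 519.6 CPM in 8276KD, up to 411 CPM in 5NC, and 180.8 to 194 CPM in 8276OV. For Adam7 the fitted log2 fold change of 8276KD against 3NC was 2.51 ± 1.70 (adjusted p = 0.619, edgeR), an estimate that rests on 8276KD 1. In 8276OV against 8276KD, Adam7 had the smallest p of its list, with -3.78 ± 1.86 (adjusted p = 1.0, edgeR).

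Among the ADAM genes listed as expressed outside the germ line, Adam9 and Adam10 had the smallest p in 8276KD against 3NC. Their log2 fold changes were -0.60 ± 0.22 (adjusted p = 0.559) and -0.40 ± 0.21 (adjusted p = 0.563, edgeR). Adam9 stood at 17.9, 19.9 and 19.3 CPM in 8276KD and at 22.6, 40.9 and 23.0 CPM in 3NC, where 40.9 CPM was the value of 3NC 2. Adam8, which leukocytes express, was at 15.8 CPM in 3NC 2 and at 4.02 CPM or less in the other libraries.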
